A study of Mus musculus with 4 samples.

Results

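Expression of 8 genes was compared between injured and sham-operated mouse spinal cord. They include the receptors for the constant part of immunoglobulin G (Fcgr1, Fcgr2b, Fcgr3 and Fcgr4), the lipid-sensing receptor Trem2 and the kinase Syk. The others are the adaptors Fcer1g and Tyrobp, through which these receptors except Fcgr2b signal. The 8 genes were chosen by name, through the gene name that the array files give to each probe, and they are 8 of 29114 genes and named transcripts that could be tested. The 2 Syk probes carry the older name Sykb in the files and were matched to Syk through their accession. The tissue was the lumbar spinal cord, taken 10 days after surgery from male mice of the outbred ICR stock aged 8 weeks, with 2 mice in each group and 1 array per mouse. In the ligated group (spinal nerve ligation, SNL) the L5 spinal nerve was tied tightly with silk, and in the sham group the same nerve was exposed and left untied; both groups had the L6 transverse process removed. The labels name the L5 cord in one field and the L4 to L5 segments in another, and neither says which side was taken. SNL models neuropathic pain, and the question addressed by the comparison is how expression in the cord differs after the nerve is tied.

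In the central nervous system these genes are expressed mainly by microglia and by macrophages at its borders. Activating Fc receptors (Fcgr1, Fcgr3 and Fcgr4) bind antibody outside the cell and pair with Fcer1g, whose cytoplasmic tyrosine motif, the ITAM, recruits Syk once it is phosphorylated. Trem2 binds lipids and lipoproteins and signals in the same manner through Tyrobp (also called DAP12), while Fcgr2b carries its own inhibitory motif, the ITIM, and opposes the activating receptors through a phosphatase. Fcgr2b, Fcgr3, Fcgr4 and Fcer1g lie together on mouse chromosome 1.

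Each gene was read by probes of 60 bases. The probes of Tyrobp and Fcgr3 are printed first, one for the adaptor of Trem2 and one for the activating receptor whose SNL and sham values were farthest apart for their error. The Tyrobp probe matches mm9 at chr7:31200651-31202378 on the plus strand; that interval is far longer than the probe, so the probe crosses a splice junction. The Fcgr3 probe matches chr1:172984129-172984188 on the minus strand. The extracellular parts of Fcgr3 and Fcgr2b are closely alike in mouse, and how far the Fcgr3 probe also binds Fcgr2b RNA was not analysed here.
Tyrobp: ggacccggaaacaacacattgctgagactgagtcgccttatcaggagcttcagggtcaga
Fcgr3: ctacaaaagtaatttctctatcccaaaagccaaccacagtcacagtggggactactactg

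The promoters of Fcgr4 and Fcgr2b are shown because these genes had the largest increases among the 8 and oppose each other in function. Both are RefSeq windows of build GRCm38.p6, from 250 bases before to 50 bases after the gene's start. The Fcgr4 window is chr1:171018676-171018975 on the plus strand, and the Fcgr2b window is chr1:170976022-170976321 on the minus strand. Capitals mark matches to 3 motifs searched on both strands: GAGGAAGT, a core bound by the myeloid factor PU.1; GGAA and GAAA with 2 free bases between them, the ETS and interferon regulatory factor composite element; and GAAA repeated after 2 free bases, the interferon response element.
Fcgr4: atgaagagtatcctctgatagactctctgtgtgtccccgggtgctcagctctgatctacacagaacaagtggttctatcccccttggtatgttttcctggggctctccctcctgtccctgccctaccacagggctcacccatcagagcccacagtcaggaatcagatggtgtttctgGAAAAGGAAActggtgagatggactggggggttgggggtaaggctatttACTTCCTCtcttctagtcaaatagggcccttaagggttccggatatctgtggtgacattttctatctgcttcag
Fcgr2b: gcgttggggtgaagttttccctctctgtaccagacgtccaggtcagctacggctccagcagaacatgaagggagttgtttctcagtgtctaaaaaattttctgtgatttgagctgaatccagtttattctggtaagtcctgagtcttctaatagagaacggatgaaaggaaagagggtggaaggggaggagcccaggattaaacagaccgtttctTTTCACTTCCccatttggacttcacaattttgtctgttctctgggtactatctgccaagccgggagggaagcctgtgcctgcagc

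In the Fcgr4 window the interferon response element was read as printed, starting 73 bases before the start, and GAGGAAGT on the opposite strand, at 24 bases before it. In the Fcgr2b window the composite element was read on the opposite strand, at 35 bases before the start. Of all 32851 windows in the table, 3.20% held GAGGAAGT, 3.44% held the interferon response element and 2.72% held the composite element. The shorter string GAGGAA, which overlaps GAGGAAGT, was present in windows of Fcgr1, Fcgr3, Fcgr4, Syk and Trem2 and in 28.3% of all windows. The table held windows for 7 of the 8 genes. These matches are descriptions of sequence only.

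Of the 8 genes, 7 were higher in both SNL mice than in both sham mice, and Fcgr1 was not. The increases ranged from 1.42-fold for Syk to 4.88-fold for Fcgr4, and the median over the 8 genes was 0.92 on the log2 scale, beside 0.028 over all genes tested. None of the 8 passed an adjusted p of 0.05 in limma with Benjamini-Hochberg adjustment over all genes, where 0.161% of all genes were called higher and 0.0103% lower. Under other settings 1 of the 8 passed without the filter on dim probes (3.31% of all genes called higher) and 4 with a trended, robust variance model (1.5% called higher). At an unadjusted p under 0.05, 7 of the 8 genes were higher and 0 lower, where 6.67% of all genes tested were higher and 5.48% lower. Without sham replicate 1 the count was 4 of 8, where 5.18% of all genes were higher. Both SNL mice stood above both sham mice for 7 of 8 genes and for 24.9% of all genes (and below for 20.9% of all genes). Increases of at least 2-fold at an unadjusted p under 0.05 were found for 3 of the 8 genes, Fcgr4, Fcgr2b and Fcgr3, and for 1.91% of all genes. All 8 genes were well above background on all 4 arrays, and none was saturated. In bulk tissue, a change in the number of cells of a type and a change in RNA per cell cannot be told apart.

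Values below are log2 signals of one probe minus the 75th percentile of its array, so that 0 is that percentile; they compare mice for a probe and do not rank genes by abundance. Fcgr3, the low-affinity activating receptor, was at 0.049 and -0.029 in the sham mice and at 1.14 and 1.58 in the SNL mice. Both SNL mice stood above both sham mice, and the difference of 1.35 ± 0.19 (SE, n = 2 per group) corresponded to 2.55-fold, with a 95% confidence interval of 0.81 to 1.90 on the log2 scale (adjusted p = 0.164). Fcgr4, an activating receptor for the mouse IgG2 subclasses, was at -4.23 and -4.42 in the sham mice and at -2.83 and -1.24 in the SNL mice. The sham mice lay close together and the SNL mice far apart, so the difference of 2.29 ± 0.60 (4.88-fold) had a wide interval, from 0.56 to 4.01 (adjusted p = 0.319). Without SNL replicate 2 the Fcgr4 difference was 1.49, and without SNL replicate 1 it was 3.08.

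Fcgr1, the high-affinity activating receptor, gave -3.94 and -3.05 in the sham mice and -3.52 and -3.55 in the SNL mice. Both SNL mice lay between the sham mice, and the difference was -0.04 ± 0.34 (adjusted p = 0.975). Its interval ran from 0.492-fold to 1.93-fold, so a difference smaller than these bounds was not detectable with 2 mice per group. Its direction rested on one sham mouse, being 0.41 without sham replicate 2 and -0.49 without sham replicate 1. The Fcgr1 probe is at chr3:96086839-96086898 on the minus strand in mm9, on another chromosome than the other Fc receptors.

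Fcgr2b, the inhibitory receptor, was at -3.52 and -3.71 in the sham mice and at -2.65 and -1.28 in the SNL mice. It was higher in both SNL mice, by 1.65 ± 0.52 (3.13-fold, interval 0.15 to 3.14, adjusted p = 0.377). As with Fcgr4, SNL replicate 2 was the highest of the 4 mice: the Fcgr2b difference was 0.96 without that mouse and 2.33 without the other SNL mouse. Before scaling, the mean processed signals of Fcgr2b were 1113 and 925 in the sham mice and 1889 and 5370 in the SNL mice, and those of Fcgr4 were 680 and 566 against 1661 and 5528.

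**Figure D1:**
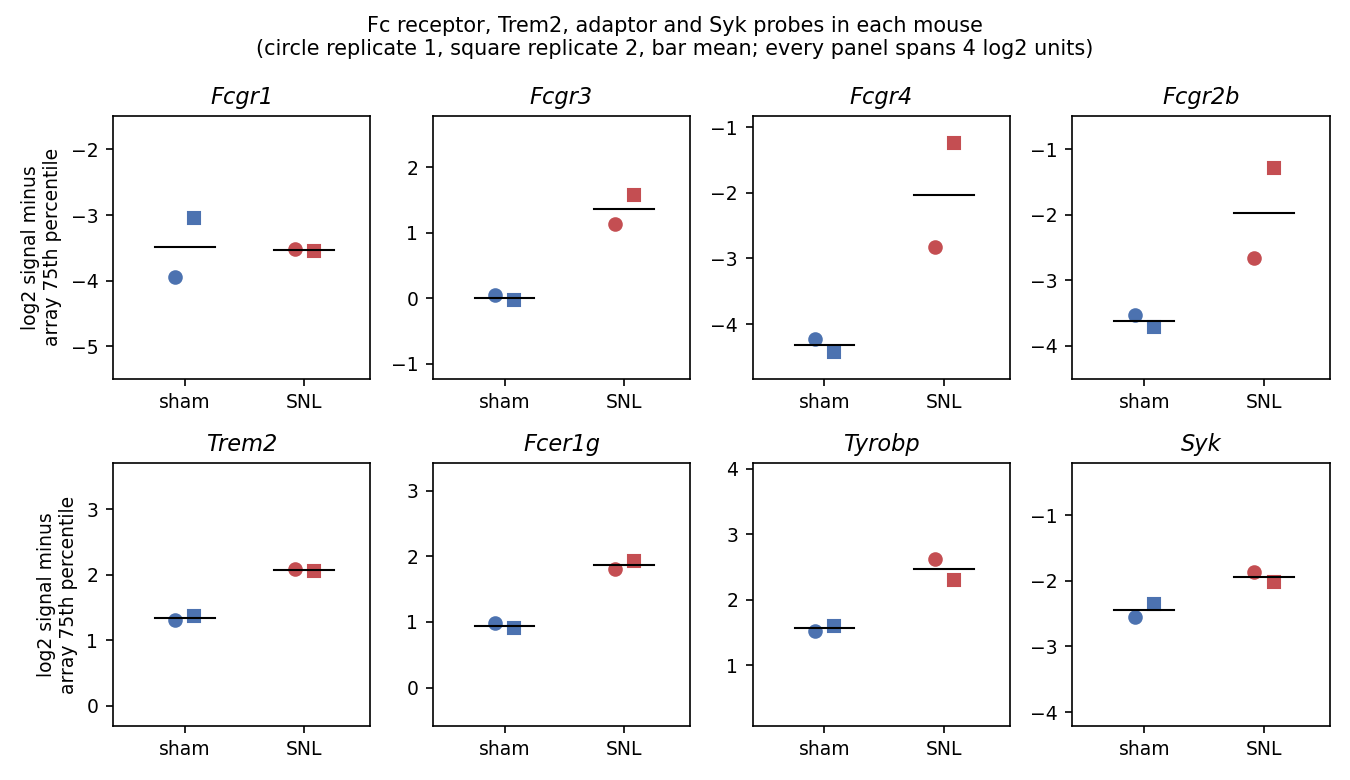
Log2 signal minus the array's 75th percentile (vertical axis, each panel spanning 4 log2 units at its own level) of each gene in the sham and SNL mice, with replicate 1 as a circle, replicate 2 as a square and the group mean as a bar. Every gene but Fcgr1 is higher in both SNL mice, and the SNL mice are farthest apart for Fcgr4 (-2.83 and -1.24) and Fcgr2b (-2.65 and -1.28).

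The array carries the Fcgr2b probe as 10 spots, which gives the spread between spots of one array. That spread holds no variation between mice, dissections, labellings or hybridisations. The SD between spots of one array was 0.079 and 0.049 on the sham arrays and 0.051 (9 spots, 1 being left out as an outlier) and 0.018 on the SNL arrays. The means of the SNL mice differed by 1.37 (2.58-fold). The same pair of mice differed by 1.59 (3.01-fold) for Fcgr4 and by 0.45 for Fcgr3, with replicate 2 higher. For Tyrobp and Syk replicate 2 was lower, with differences of -0.32 and -0.15, and for Trem2, Fcgr1 and Fcer1g the mice were -0.02, -0.03 and 0.12 apart. Over all genes tested, the median of this difference was 0.029, with 4.66% of genes above 1 and 1.21% below -1. Between the sham mice, Fcgr1 differed by 0.89 and the other genes by 0.061 to 0.20 in size.

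**Figure D2:**
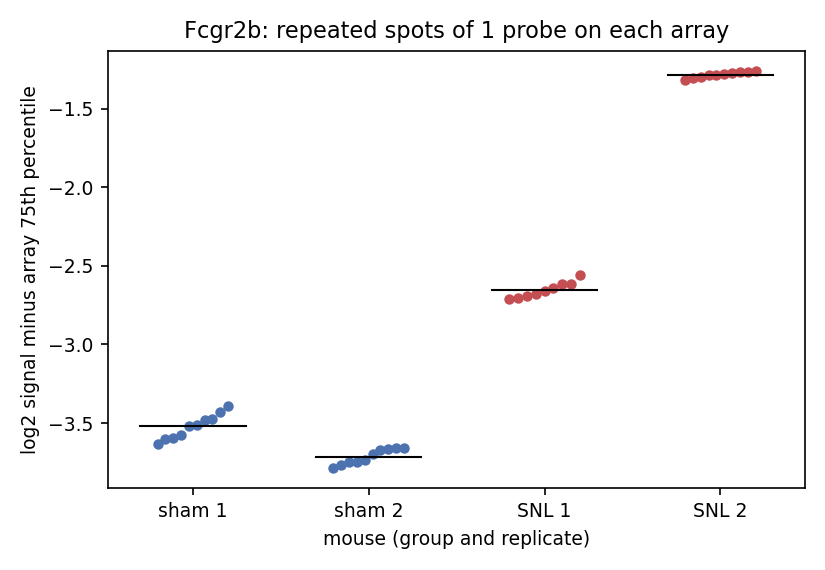
Log2 signal minus the array's 75th percentile (vertical axis) of the repeated spots of the Fcgr2b probe on each array, 1 point per spot in order of value and the mean as a bar. The spots span 0.152 on the array of SNL replicate 1 and 0.0597 on that of SNL replicate 2, and show the spread between spots of one array only.

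Trem2 was at 1.32 and 1.38 in the sham mice and at 2.08 and 2.06 in the SNL mice. The mice of each group lay close together, and the difference of 0.72 ± 0.091 (1.65-fold, interval 0.46 to 0.98) had the smallest SE of the 8 genes (adjusted p = 0.146). With the background corrected by normexp in place of the scanner software, the Trem2 difference was 0.47. Tyrobp, the partner of Trem2, was at 1.53 and 1.60 in the sham mice and at 2.63 and 2.31 in the SNL mice. It was higher in both SNL mice, by 0.90 ± 0.15 (1.87-fold, interval 0.47 to 1.34, adjusted p = 0.192).

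Fcer1g, the common gamma chain that the activating Fc receptors need for transport to the surface and for signalling, was at 0.98 and 0.90 in the sham mice and at 1.81 and 1.93 in the SNL mice. Its difference was 0.93 ± 0.10 (1.90-fold, interval 0.63 to 1.23), with the lowest adjusted p of the 8 genes (adjusted p = 0.126 in limma). Syk, the kinase recruited by both adaptors, was at -2.55 and -2.35 in the sham mice and at -1.86 and -2.02 in the SNL mice, a difference of 0.51 ± 0.13 (1.42-fold, interval 0.14 to 0.88, adjusted p = 0.309). A dimmer Syk probe at chr13:52738924-52738983 in mm9 gave -7.03 in both sham mice and -6.52 and -6.70 in the SNL mice. Its difference of 0.42 ± 0.12 (adjusted p = 0.337) had the direction of the brighter probe at chr13:52744088-52744147, and both SNL mice stood above both sham mice for each probe.

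**Figure D3:**
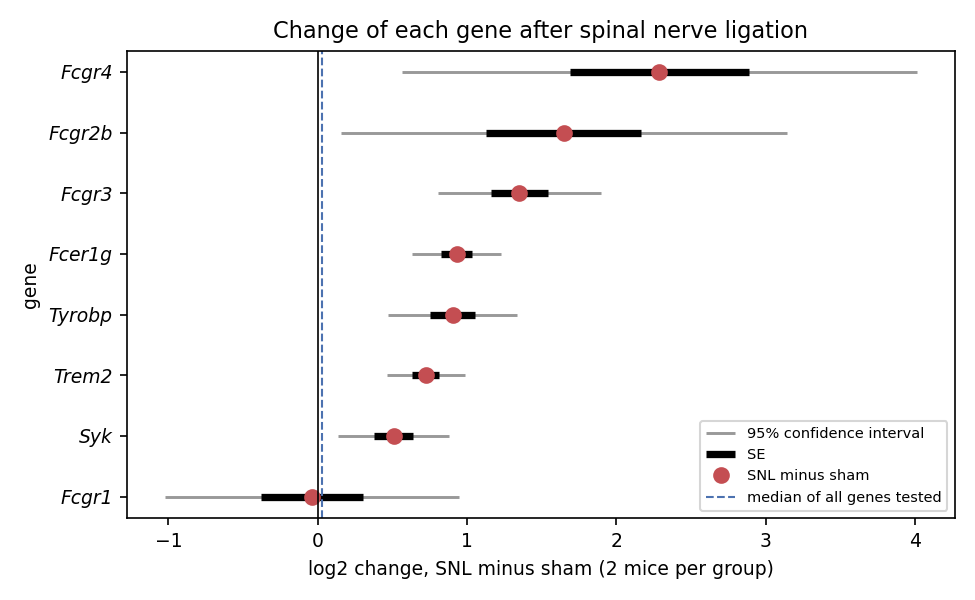
Difference between SNL and sham (horizontal axis, log2) for each gene, with the SE as a thick bar and the 95% confidence interval as a thin one, n = 2 mice per group. The intervals of Fcgr4 (0.56 to 4.01) and Fcgr2b (0.15 to 3.14) are the widest above 0, and only the interval of Fcgr1 (-1.02 to 0.95) spans 0.

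In order of the difference, the genes ran Fcgr4, Fcgr2b, Fcgr3, Fcer1g, Tyrobp, Trem2, Syk and Fcgr1. Fcgr4 and Fcgr2b were 0.64 apart with an SE of 0.79 for that gap. Fcgr2b and Fcgr3 were 0.30 apart with an SE of 0.55, and Fcer1g and Tyrobp were 0.03 apart with an SE of 0.18. The gap from Fcgr3 to Fcer1g was 0.42 with an SE of 0.22. These SEs treat the genes as independent although they share arrays, so they cannot decide whether neighbours differ, and the gaps were not tested with them. Within arrays, Fcgr4 minus Fcgr2b was -0.71 in both sham mice and -0.18 and 0.04 in the SNL mice. That gap varied less between mice than its SE of 0.79 implies.

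The balance of activating to inhibitory receptors was taken on each array as the mean log2 value of Fcgr1, Fcgr3 and Fcgr4 minus that of Fcgr2b, which does not depend on the scaling between arrays. It was 0.81 and 1.21 in the sham mice and 0.91 and 0.22 in the SNL mice, so the groups overlapped. The group means were 1.01 ± 0.28 and 0.57 ± 0.49 (SD, n = 2 mice each), a difference of -0.45 (exact two-sided permutation test, p = 0.667; the smallest p that 2 against 2 mice allow is 0.3333). Without SNL replicate 2 the difference was -0.10, and without SNL replicate 1 it was -0.80. Only changes of these values between mice can be read, since the probes' own brightness sets their level.

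Taken singly, Fcgr4 minus Fcgr2b was -0.71 in both sham mice and -0.18 and 0.04 in the SNL mice, higher in both SNL mice by 0.64 (exact permutation test, p = 0.3333, the smallest possible). Fcgr1 minus Fcgr2b was -0.42 and 0.66 in the sham mice and -0.87 and -2.26 in the SNL mice, lower in both SNL mice with a difference of -1.69 (exact permutation test, p = 0.3333). Fcgr3 minus Fcgr2b overlapped between groups, at 3.57 and 3.68 against 3.79 and 2.87. The adaptor values relative to each other overlapped too, with Fcer1g minus Tyrobp at -0.55 and -0.70 in the sham mice and -0.82 and -0.37 in the SNL mice. Tyrobp minus Trem2 was 0.22 in both sham mice and 0.55 and 0.25 in the SNL mice.

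The wider pathway was described by 7 lists holding 124 genes, of which 112 were tested. At an unadjusted p under 0.05, 36 of these were higher and 2 lower, beside the 6.67% and 5.48% of all genes given above; 0 passed an adjusted p of 0.05 in limma, and the lowest adjusted p was 0.0832. Without sham replicate 2 the count of higher genes was 23, where 4.3% of all genes were higher. Without SNL replicate 2 the count of lower genes was 5, where 7.97% of all genes were lower. The median difference was 0.24.

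In the list drawn up for other receptors that use Fcer1g, 3 of 10 tested genes were higher and 0 lower at an unadjusted p under 0.05. Not every gene in it is known to need Fcer1g, Clec7a and Clec1b among them. Of all genes, 6.67% were higher and 5.48% lower at that p, and the list median was 0.64. Cd300lf, a lipid-binding receptor of myeloid cells, was higher by 1.20 ± 0.13 (SE, adjusted p = 0.115), and its probes ranged from 1.20 to 2.19. Clec4e and Clec4d, C-type lectins that bind mycobacterial glycolipids, were higher by 0.84 ± 0.11 and 1.12 ± 0.30. Clec4e was dim, at -7.19 and -7.15 in the sham mice and -6.41 and -6.25 in the SNL mice. With the variance trend and robust estimation its SE was 0.34. Pira2, an activating receptor with many near-identical copies that the probe may not separate, differed by 0.68 and missed that threshold. In the list drawn up for receptors that use Tyrobp, 1 of 12 tested genes was higher, a share close to that of all genes, and 0 lower. Not every gene in it is known to pair with Tyrobp, and Ncr1 is in the Fcer1g list too. The list median was 0.04, and it was -0.09 with quantile normalization and -0.01 without sham replicate 1. The higher gene was Hcst (DAP10), itself an adaptor, at 0.85 ± 0.17. Clec12b differed by 0.30 and missed the threshold, and Cd300lb and Klrd1 were not well above background in the SNL mice. Clec5a and Klrk1 were too dim to be tested.

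Among the other Fc receptors, 2 of 11 tested were higher and 0 lower, where 6.67% and 5.48% of all genes were. The list median was 0.31, and it was 0.09 without sham replicate 1. Ms4a2, the beta chain of the high-affinity IgE receptor, was not well above background on either sham array and was at -6.20 and -3.37 in the SNL mice. It counts among the higher genes of this list and of all 7 lists, but passed the filter on dim probes only through the SNL arrays. Its adjusted p of 0.246 in limma came from a fit to those dim sham values. It was at least 8.90-fold higher in SNL than the lowest signal that counts as measured. This bound was 3.34-fold without SNL replicate 2 and 23.7-fold without SNL replicate 1. Fcrlb, an intracellular Fc receptor-like protein, was higher by 0.31 ± 0.097. Fcrls, a receptor-like protein of microglia, differed by 1.00 ± 0.39 and missed the threshold, as did Fcamr, a receptor for IgM and IgA, at 0.46. Fcer1a, the IgE-binding chain, and Fcrl1 were too dim to be tested.

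Of the ligands, shedding enzymes and Trem2-linked membrane proteins, 11 of 18 listed were tested, 3 were higher and 1 lower. The shares of all genes were 6.67% higher and 5.48% lower. Ms4a4a and Ms4a6d, membrane proteins of macrophages from a family of close paralogs, were higher by 2.52 ± 0.35 and 2.18 ± 0.30 (adjusted p = 0.161 each). Apoe, a lipoprotein bound by Trem2, was higher by 0.41 ± 0.13, and Apcs, a pentraxin that binds Fc receptors, was lower, at -0.47 ± 0.12. The list median was 0.18, and it was 0.04 with quantile normalization.

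Downstream of the adaptors, 9 of 30 kinases and adaptor proteins were higher and 1, Vav3, was lower, with a median of 0.12. For this and the next lists, the shares of all genes were 6.67% higher and 5.48% lower. Vav1, a guanine nucleotide exchange factor of blood cells, was 2.14-fold higher (SE 0.11 on the log2 scale, adjusted p = 0.0998). The kinases Btk and Lyn were higher by 0.80 ± 0.12 and 0.72 ± 0.11. In the list of inhibitory receptors and phosphatases, 8 of 19 were higher and 0 lower, with a median of 0.30. That median was 0.50 with the mean of a gene's tested probes and 0.44 without SNL replicate 1. Cd33, a sialic acid receptor placed in this list, was higher by 1.04 ± 0.091 (adjusted p = 0.0908 in limma). Whether it is inhibitory in mouse was not tested. Inpp5d, the lipid phosphatase recruited by Fcgr2b, was higher by 1.11 ± 0.15, and the tyrosine phosphatases Ptpn6 and Ptprc by 0.78 ± 0.10 and 0.73 ± 0.088. Of the genes of the phagocyte oxidase and of actin remodelling, 10 of 20 were higher and 0 lower, with a median of 0.42. Fermt3, an integrin activator of blood cells, was higher by 1.16 ± 0.088 (adjusted p = 0.0832) and Ncf1, a subunit of the oxidase, by 1.19 ± 0.098 (adjusted p = 0.0876). Rac2, a small GTPase of the oxidase, and Was, an actin regulator, were higher by 0.74 ± 0.094 and 0.95 ± 0.15.

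**Figure D4:**
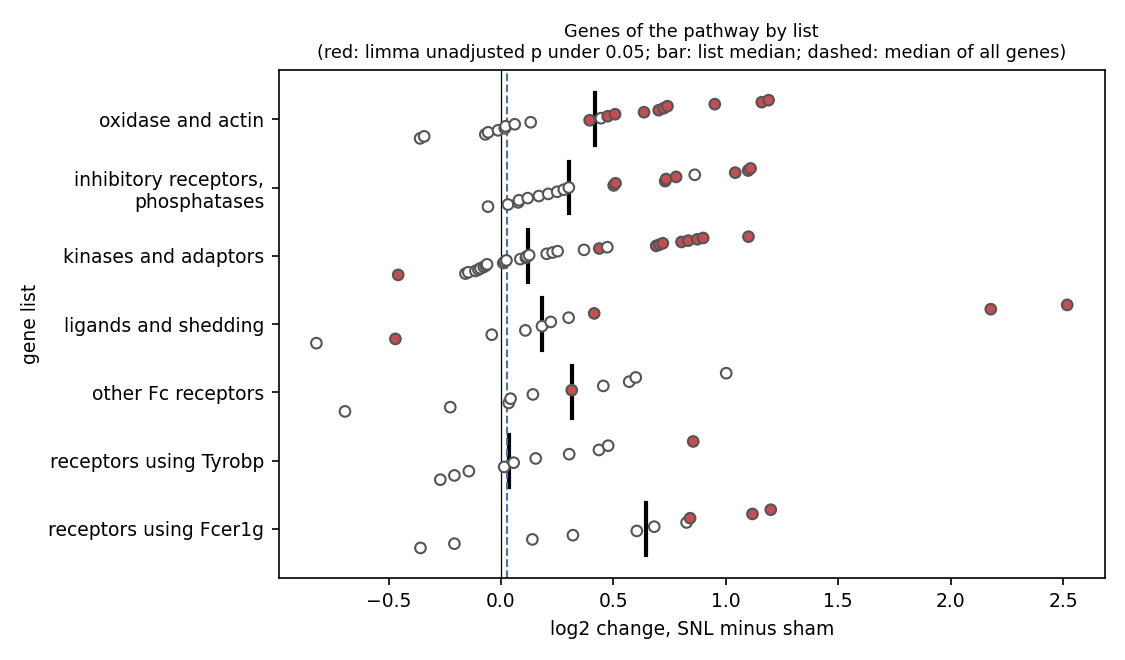
Difference between SNL and sham (horizontal axis, log2) of 108 tested genes of the 7 pathway lists, 1 point per gene in each list. Ncr1 is drawn in both the Fcer1g and the Tyrobp list. Points are red where the unadjusted p from limma was under 0.05. A bar marks the list median and a dashed line the median of all genes. Another 4 genes with no array well above background in one of the groups are not drawn. The list median is farthest right for the list labelled receptors using Fcer1g (0.64). It is nearest to that of all genes for the list labelled receptors using Tyrobp (0.04). Not every gene in these lists is known to use the adaptor named.

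The 4 genes on chromosome 1 lie within 269 kb of each other by their probes. Of 30 other tested genes within 250 kb of them, 3 were higher and 3 lower at an unadjusted p under 0.05, where 6.67% of all genes were higher and 5.48% lower, and their median difference was -0.01. An intergenic RNA region 97.5 kb from Fcer1g was lower, at -1.08 ± 0.17 (SE), and Nr1i3, a nuclear receptor gene 11.0 kb from the Fcer1g probe, was lower, at -0.57 ± 0.11. Arhgap30, a GTPase-activating protein gene 180.4 kb from Fcer1g, was higher by 0.87 ± 0.17. Near Tyrobp, 2 of 35 neighbours were higher, a share close to that of all genes, and 0 lower; Hcst, whose probe lies 0.358 kb from that of Tyrobp, was one of them. Near Fcgr1, 7 of 29 neighbours were higher and 0 lower, with a median of 0.12. The higher ones include several clustered histone genes and both strands of an intergenic RNA region, so they are not separate loci.

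The mean of the 8 genes, centred over the 4 arrays, was -0.56 and -0.48 in the sham mice and 0.33 and 0.71 in the SNL mice. Among the 5 tested transcripts nearest to this profile by root mean square distance over the 4 arrays, Was was the one with a gene symbol, at 0.0527. The other 4, a consensus transcript, an unnamed probe, an intergenic RNA region and an Ensembl transcript, were at 0.0379 to 0.0466. The next with symbols, chosen after their values were seen, were Irf7, Pilrb2 and Gpnmb at 0.0685 to 0.0742.

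Markers of microglia, which express these genes, had a higher summed signal in both SNL mice. The summed signals of neurons, of monocytes and of T and NK cells were also higher in both. Neuronal markers summed to 58.8 and 62.3 in the sham mice and 69.1 and 63.3 in the SNL mice. All sums are in units of each array's 75th percentile. Of 15 microglial markers, all tested, 14 were above 0 in the difference, where 54.9% of all genes tested were. At an unadjusted p under 0.05, 6 of the 15 were higher and 1, Sall1, was lower, where 6.67% and 5.48% of all genes were. Siglech and Fcrls of this list are also in the pathway lists. The median was 0.45, which was 0.29 without SNL replicate 1. The summed signal of the list, in units of each array's 75th percentile, was 54.1 and 56.7 in the sham mice and 77.7 and 67.6 in the SNL mice; the part of this in the increases of the 8 genes was not tested. The same sum for border macrophages was 2.23 and 0.84 against 2.10 and 1.89, with 1 of 10 markers higher, and the list median of 0.68 was -0.19 without sham replicate 2.

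For neutrophils the summed signal was 19.5 and 24.5 in the sham mice and 20.1 and 15.0 in the SNL mice, with 0 of 12 markers past an unadjusted p of 0.05 in limma in either direction. The sums for monocytes (9 tested) ran from 15.5 to 16.6 in the sham mice and from 17.8 to 18.0 in the SNL mice, with 0 markers past that p. For B cells (6 tested) the sums ran from 0.249 to 0.439 and from 0.312 to 0.342, again with 0 past that p. T and NK cell markers gave 0.724 to 0.756 against 0.861 to 0.927, with 3 of 11 higher. Mast cell markers gave 0.716 to 0.983 against 0.941 to 1.13, with 2 of 6 higher, Ms4a2 among them. Ms4a2 passed the filter on dim probes only through the SNL arrays, and Cpa3 was not well above background. Dendritic cell markers gave 2.14 to 2.27 against 2.13 to 2.30, with 2 of 8 higher and 1 lower. Schwann cell markers, which would come with nerve root, gave 24.0 and 12.4 against 30.4 and 22.0, with 1 of 8 higher. Of all genes tested, 6.67% were higher and 5.48% lower at that p. The part of these cell types in the results above was not tested.

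Across the series, the sham arrays had 82.1% and 81.9% of spots well above background and the SNL arrays 74.9% and 78.1%. Arrays correlated at 0.991 within sham, 0.988 within SNL and 0.982 to 0.984 between groups, across genes. Of the markers of spinal cord cells, 9 of 10 neuronal, 8 of 8 astrocyte and 8 of 8 oligodendrocyte genes were tested. At an unadjusted p under 0.05, Snap25 was higher (0.43) and Chat lower (-0.73) among the neuronal markers, Mobp higher (0.35) and Ugt8a lower (-0.32) among the oligodendrocyte markers, and 0 astrocyte markers passed in limma in either direction. Of 8 endothelial markers, all tested, 5 were lower in both SNL mice and 1 higher in both, with a median of -0.24. Of all genes, 20.9% were lower in both SNL mice and 24.9% higher in both. At that p, Tek was lower (-0.64) and Ly6c1 higher (0.52). All arrays share 1 slide and 1 scan. By spot positions the sham arrays lie in one row of the slide and the SNL arrays in the other, so row and group cannot be told apart.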

How the data were processed

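Per the labels' protocols, Cy3-labelled RNA of 4 mice, 1 array each, was put on 1-colour Agilent arrays. Intensity in the deposited files is the processed signal of Agilent Feature Extraction (10.7.3.1 per the file headers, 10.7.1.1 per the submitters' processing notes), with probe positions in mm9. The authors' deposited value table holds log2 values that match each array's scanner values (correlation rounding to 1; column medians -3.45, -3.52, -3.48 and -3.33), shifted to about the 75th percentile and not centred per gene; the spots behind that percentile stay unknown.

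Values here are log2(processed signal) minus the 75th percentile of 59305 non-control spots on the array. Outlier spots were left out and spots of a probe averaged. Probes well above background on at least 2 of 4 arrays were tested, and the brightest probe stood for its gene. Of the probes, 26762 were named by accession, 3819 by symbol and 639 by synonym from a RefSeq table, and 24461 kept the file's name. SNL minus sham was fitted in limma 3.58.1 (R 4.3.3) with 2 residual and 1.66 prior degrees of freedom, after a test on simulated data, and adjusted by Benjamini-Hochberg. The number of arrays limits precision (median SE 0.13). Where a group had no array well above background, its bound is the higher, per array, of the probe's signal and the dimmest one still well above background.

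The 8 genes, the lists and the tests were chosen with earlier results of these data known. Named were all 8 genes, up to 4 genes of each pathway list and up to 4 neighbours with the smallest p, and the 5 nearest profiles; a gene that this rule names in the kinase list is not reported here. Alternatives were normexp (offset 50), quantile normalization, the deposited table, no filter, the mean over probes, a replicate block, a variance trend with robust estimation, and each mouse left out. Replicates are separate mice per the labels' protocols.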

Additional observations from a re-analysis of the deposited data

How the results depend on the processing

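The 7 genes higher in SNL kept that direction under every alternative run, and Fcgr1 was the exception, ranging from -0.49 to 0.41 with one mouse left out (0.41 without sham replicate 2). None of the 8 genes passed the adjusted p in the main values; 1 did without the filter on dim probes (Fcer1g, where 3.31% of all genes were called higher) and 4 did with the variance trend and robust estimation (Fcgr3, Trem2, Fcer1g and Tyrobp, where 1.5% were). With one mouse left out 0 of the 8 genes and 0 of all genes passed the adjusted p, so that count says nothing of the 8; between 4 and 7 of them were higher at an unadjusted p under 0.05, where 4.3% to 9.42% of all genes were. Of the pathway genes, 2 passed the adjusted p with normexp, 6 without the filter and 11 with the variance trend; 4 were lower at an unadjusted p with normexp and 4 with quantile normalization, against 2 in the main values. Of all genes, 0.409% were called higher with normexp, and 7.04% and 8.25% were lower at an unadjusted p with normexp and quantile normalization, against 5.48% in the main values. With one mouse left out 23 to 35 pathway genes were higher, 2 to 5 lower and 0 past the adjusted p. The balance of activating to inhibitory receptors ranged from -0.80 to -0.10. The cause of these shifts was not tested. Same-numbered mice did not deviate together (r = -0.03); with the replicate number as a block 6 of the 8 genes were higher at an unadjusted p under 0.05, Syk not being among them, 0 of them and 0 of all genes passed the adjusted p (lowest of the 8, 0.360), and 36 pathway genes were higher, where 5.73% of all genes were. The median over the 8 genes was 0.71 with normexp, where that over all genes was 0.067. With quantile normalization these medians were 0.87 and -0.03. A block for slide or scan was not run, since both are shared. With 2 mice per group an exact test cannot go below 0.3333.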
